A study of Mus musculus with 36 samples.

Results

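Matrix metalloproteases (Mmp), ADAMTS proteases, ADAMTS-like proteins (Adamtsl) and tissue inhibitors of metalloproteases (Timp) were examined in mouse fetal fibroblasts of 3 tissues, tendon, cornea and skin, that were kept without flow or under slow fluid flow. A gene was included when an array probe set was annotated to a single symbol made of one of these names and a number. This gave 42 genes, 18 Mmp, 15 Adamts, 5 Adamtsl and 4 Timp, measured by 78 of the 35041 single-symbol probe sets and making up 42 of 18193 genes. The cells came from CD1 mouse fetuses at 19 days post conception, had been grown for 5 population doublings, and were allowed 7 h to adhere to gelatin-coated glass. Static cultures then stayed in medium with 2% fetal calf serum for 14 h, and flow cultures were perfused for the same 14 h in a parallel plate chamber at a wall shear stress of 0.1 dyn/cm2. The 6 groups, static and flow for each of tendon, cornea and skin, held 3 libraries each, and every library was hybridised to both chips of an Affymetrix mouse pair. All groups shared the strain, the passage, the gelatin coat and the serum. The labels call the replicates biological but do not say that they came from separate fetuses, so the p-values given here speak of the spread among these samples, which may be technical.

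Matrix metalloproteases are zinc-dependent enzymes made as inactive proenzymes, and between them they cleave fibrillar collagens, gelatin, proteoglycans and other matrix proteins. The membrane-type members stay anchored at the cell surface, where Mmp14 activates the proenzyme of Mmp2. ADAMTS proteases are secreted, bind matrix through thrombospondin repeats and include the enzymes that cleave aggrecan and versican, while ADAMTS-like proteins share the non-catalytic part and have no protease domain. TIMPs block the active site of metalloproteases, and Timp3 is held in the matrix and inhibits ADAMTS enzymes as well. Fibroblasts are a main source of these proteins in connective tissue, and several Mmp promoters are known targets of AP-1, the Fos and Jun transcription factor family.

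Of the 42 genes, 9 Mmp genes lie side by side on chromosome 9, and they include Mmp10, Mmp3 and Mmp13, whose levels differed most widely between libraries within this cluster. Their promoters are shown because the palindromic AP-1 motif TGANTCA lies close to each start. The 250 bases before the transcript start follow, 5' to 3', with the motif in capitals and the rest in lower case. They come from RefSeq on GRCm38.p6, all on the plus strand, at chr9:7502092-7502341 for Mmp10, chr9:7445572-7445821 for Mmp3 and chr9:7272264-7272513 for Mmp13.
Mmp10: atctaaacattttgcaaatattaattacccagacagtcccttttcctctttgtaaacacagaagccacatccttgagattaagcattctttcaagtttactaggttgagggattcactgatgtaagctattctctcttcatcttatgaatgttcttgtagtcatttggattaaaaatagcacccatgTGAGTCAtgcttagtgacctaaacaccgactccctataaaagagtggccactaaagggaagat
Mmp3: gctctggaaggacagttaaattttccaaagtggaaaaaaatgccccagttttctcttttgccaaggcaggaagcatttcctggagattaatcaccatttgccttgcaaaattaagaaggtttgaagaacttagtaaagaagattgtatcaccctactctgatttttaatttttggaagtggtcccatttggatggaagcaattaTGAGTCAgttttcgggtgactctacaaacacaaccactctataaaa
Mmp13: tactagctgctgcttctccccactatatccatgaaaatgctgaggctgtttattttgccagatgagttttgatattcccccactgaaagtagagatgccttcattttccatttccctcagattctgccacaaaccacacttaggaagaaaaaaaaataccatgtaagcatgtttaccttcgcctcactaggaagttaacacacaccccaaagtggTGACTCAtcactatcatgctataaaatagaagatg
The motif began 63 bases before the start in Mmp10, 46 in Mmp3 and 35 in Mmp13. RefSeq windows were available for 27 of the 42 genes. Of the 9 cluster genes, 8 held the motif in these 250 bases of at least 1 listed start, Mmp8 being the exception, and none of the 18 matched genes elsewhere did. Over all 32851 promoter windows of this length, 6.75% held it on either strand, which for a palindrome is the same match. Mmp1a, Mmp1b, Mmp7, Mmp12 and Mmp20 also held the motif, and their array signals stayed within narrow limits, given further on. For Mmp7 and Mmp12 the table lists 2 starts each, and 1 of the 2 windows held it. A match of letters is a description and does not show binding.

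**Figure D1:**
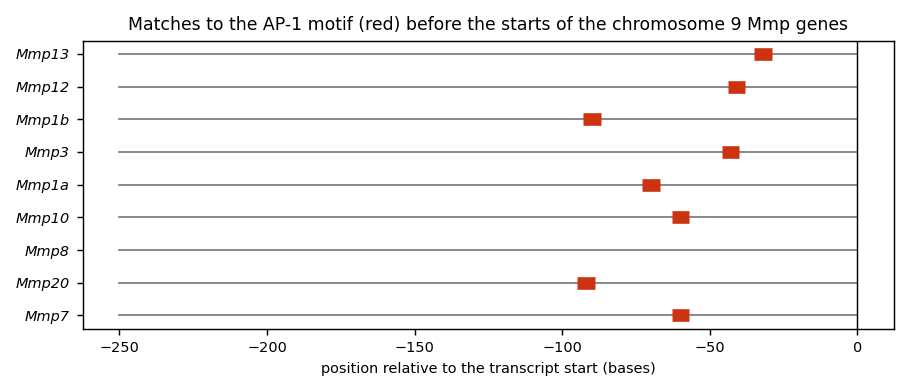
Position of TGANTCA matches (red) in the 250 bases before the transcript start of the 9 Mmp genes on chromosome 9, in chromosome order, with the distance from the start in bases on the horizontal axis. Each of 8 genes has a match within the last 95 bases, for Mmp7 and Mmp12 at 1 of 2 listed starts, and Mmp8 has none.

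The values are robust multi-array average (RMA) signals on the log2 scale, in which a difference of 1 is a doubling, and levels of different probe sets are not compared. Differences were tested with limma in a model of all 6 groups, and a gene is called when its p, adjusted over all 18193 genes, is below 0.05. The tissue labels were checked against markers: the corneal genes Aldh1a1, Foxc1 and Tfap2b were called higher in cornea against both other tissues in both states, Thbs4 was called higher in tendon, and Dpt in skin. The corneal proteoglycan gene Kera stayed between 4.62 and 4.94 in all group means, and the tendon genes Scx and Tnmd were not called in any comparison. Another tendon gene, Fmod, was called higher than in skin in tendon (0.90 static, 1.15 flow) and also in cornea (0.89 and 0.94). It was not called between cornea and tendon. The dermal gene Tbx18 was called higher in static cornea than in static tendon (0.80). Dermal genes called lower in cornea than in tendon were Dpt (-1.89 static, -2.38 flow), Twist2 (-1.51, -1.44) and Crabp1 (-1.79, -1.99). Twist2 and Crabp1 were not called between tendon and skin. The fibroblast gene Thy1 was called lower in cornea against tendon (-1.12 static, -0.98 flow) and against skin (-1.605, -1.27). A free-text label names cornea for the tendon flow arrays while their titles say tendon; Aldh1a1 averaged 6.05 and Thbs4 8.69 in them, against 10.49 and 6.08 in the cornea flow libraries. In the scan records, 5 libraries form scan batch 1, namely replicate 1 of both tendon groups, both skin groups and cornea flow, while 13 form scan batch 2, and static and flow libraries of a tissue form 8 pairs, 6 by a noted culture day and 2, replicate 1 of tendon and of skin, by their number alone since no day is noted for them. The record of skin static 2 remarks that its material may have been more concentrated. Without that library static cornea against static skin called 5 of the 42 genes and static tendon against static skin 3. Over all 18193 genes, refits that each left out 1 library called 231 to 497 and 126 to 253 in these comparisons. The 3'-to-5' signal difference of beta-actin, a sign of RNA integrity, ranged between 0.78 and 1.75 in tendon libraries, between 0.77 and 0.99 in those of cornea and between 0.64 and 1.69 in skin, and its part in the tissue differences was tested only as a covariate.

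More of these genes were called between tissues than between flow and static cultures. Static cornea against static tendon called 6 of the 42 (14.3%, against 2.44% of all genes), 3 higher and 3 lower in cornea. In static cornea against static skin 4 were called (9.52%, against 2.47% of all genes), and in static tendon against static skin 5 (11.9%, against 1.32%). Under flow the counts were 6 for cornea against tendon (14.3%, against 1.69%), 5 for cornea against skin (11.9%, against 1.91%) and 3 for tendon against skin (7.14%, against 1.06%). In all, 12 genes were called between tissues; with Adamts9, called for flow, 13 of the 42 (31.0%) were called in at least 1 of the 11 comparisons, against 5.61% of all genes. The 12 were Mmp2, Mmp9, Mmp10, Mmp11, Mmp13, Mmp16, Adamts1, Adamts4, Adamts5, Adamtsl1, Adamtsl3 and Timp3. The median difference over the 42 genes was small in each tissue comparison, between -0.15 and -0.05 on the log2 scale, against -0.04 to 0.03 over all genes. In these bulk cultures, fewer cells of a type and less RNA per cell cannot be told apart.

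Cornea fibroblasts had the lowest signal of Mmp10, stromelysin-2, which cleaves proteoglycans and activates other proenzymes. For Mmp10 (probe set 1420450_at) the static cornea libraries read 7.71, 7.02 and 7.40, the static tendon libraries 10.28, 8.45 and 9.38, and the static skin libraries 10.27, 9.54 and 9.75. Under flow Mmp10 read 7.18, 8.24 and 7.70 in cornea, 10.60, 9.19 and 9.55 in tendon, and 10.45, 10.22 and 10.06 in skin. No cornea library reached the lowest tendon or skin library, while tendon and skin overlapped. The static difference of cornea was -2.0 (SE 0.41) against tendon, a 3.99-fold lower signal with an adjusted p of 0.012, and -2.48 (SE 0.41) against skin, 5.56-fold lower with an adjusted p of 0.0025. Under flow Mmp10 differed by -2.07 (adjusted p = 0.012) and -2.53 (adjusted p = 0.0020). Within scan batch 2 alone the 4 differences ran from -1.40 to -2.27, and that of flow cornea against flow tendon was not called there (adjusted p = 0.10). The calls against tendon were lost without tendon static 1 (adjusted p = 0.064) or cornea static 2 (0.060) and, under flow, without tendon flow 1 (0.075) or cornea flow 1 (0.069).

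Mmp13, the main collagenase of rodents, was also low in cornea, with a called difference from tendon. Mmp13 (1417256_at) read 7.75, 7.03 and 7.23 in static cornea, 9.42, 9.34 and 9.10 in static tendon, and 8.75, 8.96 and 8.07 in static skin. Its flow libraries read 6.23, 8.30 and 7.32 in cornea, 9.82, 8.77 and 8.96 in tendon, and 9.17, 8.87 and 8.58 in skin. Every tendon and skin library was above every cornea library of the same state. Cornea differed from tendon by -1.95 (SE 0.40, adjusted p = 0.012) in static cultures and by -1.90 (SE 0.40, adjusted p = 0.019) under flow, 3.87-fold and 3.74-fold lower. Against skin the differences were -1.26 and -1.59, with adjusted p of 0.14 and 0.054; with culture day as a random block the flow difference was called (adjusted p = 0.027), and with only the compared groups the static one was (0.044). Among flow libraries of scan batch 2 Mmp13 differed from tendon by -1.06 (adjusted p = 0.38), and between the single libraries of scan batch 1 by -3.59. The tendon calls were lost without tendon static 1 (adjusted p = 0.051), cornea static 2 (0.058), tendon flow 1 (0.12), cornea flow 1 (0.075) or cornea flow 3 (0.062).

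Mmp3, stromelysin-1, spanned a similar range without a call. The Mmp3 signal was 9.48, 8.35 and 8.69 in static cornea, 10.70, 9.31 and 8.94 in static tendon, and 11.19, 10.25 and 9.93 in static skin. Under flow it was 8.07, 9.74 and 8.56 in cornea, 10.75, 9.20 and 9.15 in tendon, and 10.93, 10.10 and 9.82 in skin. Cornea and tendon overlapped, and all cornea libraries were below all skin libraries. Static cornea differed from static skin by -1.62 with an adjusted p of 0.18. Taking the culture day as a random block, the same comparison gave -1.73 and an adjusted p of 0.046. The rest of the cluster was dim or flat: Mmp1a and Mmp1b, collagenases, ran from 4.03 to 4.56 and from 4.25 to 4.94, Mmp12, metalloelastase, from 4.30 to 4.75, Mmp20, enamelysin, from 4.40 to 4.76, Mmp8, neutrophil collagenase, from 6.10 to 6.72, and Mmp7, matrilysin, from 7.42 to 7.96 over the 18 libraries.

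**Figure D2:**
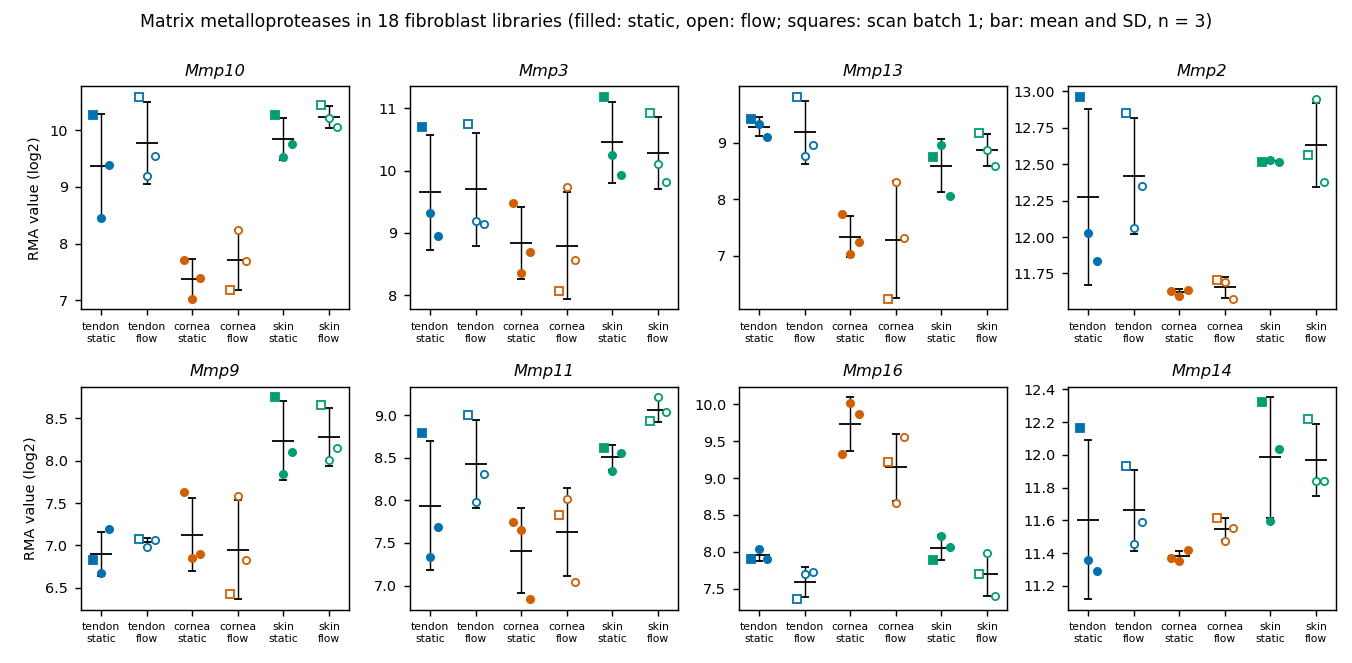
RMA signal (log2) of 8 Mmp genes in each library, with groups along the horizontal axis, static libraries filled, flow libraries open, squares for scan batch 1, and bars for mean and SD (n = 3). Mmp10 and Mmp13 are lowest in cornea, Mmp16 is highest in cornea, and Mmp9 is highest in skin.

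Skin fibroblasts had the highest group means of both gelatinases, the enzymes that digest denatured collagen and basement membrane collagen. Mmp9 (1416298_at) read 8.76, 7.85 and 8.11 in static skin, 6.83, 6.68 and 7.19 in static tendon, and 7.63, 6.86 and 6.90 in static cornea. Its flow libraries read 8.66, 8.01 and 8.15 in skin, 7.08, 6.98 and 7.06 in tendon, and 6.43, 7.58 and 6.83 in cornea. Every skin library was above every library of the other tissues. The called differences were static tendon against static skin, -1.34 (SE 0.29, adjusted p = 0.028), and flow cornea against flow skin, -1.33 (SE 0.29, adjusted p = 0.022). For static cornea against static skin the value was -1.11 (adjusted p = 0.056) and for flow tendon against flow skin -1.24 (adjusted p = 0.053). With culture day as a random block these were called as well (adjusted p = 0.012 and 0.020). A second Mmp9 probe set gave -1.12 and -1.17 in the called comparisons, in the order given.

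Because Mmp9 is also a leukocyte gene, macrophage and neutrophil markers were read beside it. Of 7 macrophage markers only Cd68 was called, in flow cornea against flow skin (-0.58), and the mean of the list ranged between 6.26 and 6.44 in skin libraries, between 6.14 and 6.45 in tendon libraries and between 6.05 and 6.26 in cornea. Csf1r averaged 9.51 in static and 9.25 in flow skin, against 8.72 to 9.06 in the other groups, while Ptprc, the pan-leukocyte marker, lay between 4.77 and 4.97. None of 5 neutrophil markers was called. Their part in the Mmp9 difference was not tested. The Mmp9 calls were lost without tendon static 1 (adjusted p = 0.082), tendon static 2 (0.089), skin static 1 (0.16) or skin static 3 (0.082), and under flow without cornea flow 1 (0.12), cornea flow 3 (0.088), skin flow 1 (0.14) or skin flow 3 (0.060). Within scan batch 2 the values were -1.05 and -0.88, neither of them called (adjusted p = 0.28 and 0.43).

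Mmp2 and Mmp11 were called lower in cornea than in skin under flow, and static Mmp2 passed the threshold under several alternatives. For Mmp2 (1416136_at), gelatinase A, the flow libraries read 11.70, 11.69 and 11.57 in cornea, 12.57, 12.95 and 12.38 in skin, and 12.85, 12.06 and 12.35 in tendon. Static Mmp2 libraries read 11.63, 11.60 and 11.64 in cornea, 12.51, 12.53 and 12.52 in skin, and 12.96, 12.03 and 11.84 in tendon. The cornea libraries lay below all others, and among the static ones the largest spread was in tendon. Flow cornea differed from flow skin by -0.97 (SE 0.24, adjusted p = 0.044), and static cornea from static skin by -0.90 (adjusted p = 0.060). The static difference was called with culture day as a random block (-0.89, adjusted p = 0.033), in scan batch 2 alone (-0.90, adjusted p = 0.030) and with the mean of the probe sets (adjusted p = 0.043). The second Mmp2 probe set gave -0.84 under flow.

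Mmp11, stromelysin-3, which acts on few matrix proteins, read 7.83, 8.01 and 7.05 in flow cornea and 8.94, 9.22 and 9.04 in flow skin (probe set 1417234_at). In static cultures Mmp11 read 7.74, 7.66 and 6.84 in cornea and 8.61, 8.34 and 8.56 in skin. Tendon lay between and overlapped both, at 8.79, 7.34 and 7.69 static and 9.0, 7.99 and 8.31 under flow. The flow difference of cornea from skin was -1.43 (SE 0.35, adjusted p = 0.043) and the static one -1.09 (adjusted p = 0.14). Of 18 refits that each left out 1 library, Mmp11 stayed called in 8, those without a static tendon library, tendon flow 1 or 2, cornea static 1 or 3, or cornea flow 2, and Mmp2 in 5, those without a static tendon library or tendon flow 1 or 2. The highest adjusted p was 0.20 for Mmp11, without cornea flow 3, and 0.20 for Mmp2, without skin flow 2, and within scan batch 2 the values were -1.60 (adjusted p = 0.076) and -1.03 (adjusted p = 0.026).

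Mmp16, a membrane-type enzyme also called MT3-MMP, was higher in cornea than in either other tissue in both states. Mmp16 (1437568_at) read 9.32, 10.02 and 9.86 in static cornea, 7.91, 8.04 and 7.91 in static tendon, and 7.89, 8.22 and 8.07 in static skin. Its flow libraries read 9.22, 8.66 and 9.55 in cornea, 7.35, 7.70 and 7.72 in tendon, and 7.70, 7.98 and 7.40 in skin. The cornea libraries were above all tendon and skin libraries without overlap. The static difference was 1.78 (SE 0.22) against tendon, 3.44-fold with an adjusted p of 0.00011, and 1.68 (SE 0.22) against skin, 3.20-fold with an adjusted p of 0.00025. Under flow Mmp16 differed by 1.55 (adjusted p = 0.00050) and 1.45 (adjusted p = 0.00097). All 4 calls stood in every refit without 1 library. In scan batch 2 alone the static values of 1.76 and 1.59 were called, and the flow values of 1.40 and 1.41 were not (adjusted p = 0.093 and 0.078). Of the other Mmp16 probe sets, one gave 1.14 and 0.99 in the static comparisons and 0.75 and 0.72 under flow, one gave 0.35 to 0.53, and a dim one, averaging between 3.50 and 3.74, gave 0.08 to 0.25.

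The other membrane-type and secreted enzymes showed no called difference. Mmp14, MT1-MMP, ran from 11.29 to 12.33 over all libraries and differed by -0.61 between static cornea and static skin (adjusted p = 0.21). Mmp17 stayed between 6.14 and 6.57 and Mmp24 between 7.61 and 8.15. Mmp23, a small enzyme with its own type of membrane anchor, ran from 9.75 to 11.29, with static tendon above static skin by 0.69 (adjusted p = 0.20), and Mmp19 from 7.19 to 7.66.

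Among the ADAMTS enzymes that cleave proteoglycans, Adamts5, an aggrecan- and versican-cleaving protease, was higher in cornea than in tendon. Adamts5 (1422561_at) read 11.62, 11.32 and 11.16 in static cornea, 9.65, 10.05 and 9.24 in static tendon, and 10.26, 10.74 and 10.45 in static skin. Under flow the libraries read 10.95, 10.45 and 10.57 in cornea, 8.53, 9.75 and 9.27 in tendon, and 10.07, 10.04 and 9.57 in skin. Cornea was above both other tissues in each state without overlap. Against tendon the Adamts5 difference was 1.72 in static cultures (SE 0.27, 3.30-fold, adjusted p = 0.0012) and 1.47 under flow (SE 0.27, 2.78-fold, adjusted p = 0.0059). Against skin it was 0.89 and 0.76, with adjusted p of 0.11 and 0.25. When every probe set was tested, 1 other Adamts5 probe set was called in static cornea against static skin (1.16, adjusted p = 0.022), as was the mean of the probe sets (1.02, adjusted p = 0.019). A second Adamts5 probe set gave 1.14 and 1.20 against tendon, another 1.06 and 1.11, and the last, near 3, gave 0.13 and 0.15. Both calls stood in every refit without 1 library, and within scan batch 2 the static value was 1.72 (adjusted p = 0.0073) and the flow value 1.0 (adjusted p = 0.23).

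Adamts1, which also cleaves versican and aggrecan, was called lower in tendon than in skin in both states and than in cornea in static cultures. Adamts1 (1450716_at) read 8.66, 9.33 and 8.03 in static tendon, 10.11, 9.94 and 9.69 in static cornea, and 9.84, 10.06 and 9.81 in static skin. The flow libraries read 8.23, 8.89 and 8.48 in tendon, 9.43, 9.02 and 9.38 in cornea, and 10.13, 9.70 and 9.31 in skin. In each state every tendon library lay below every library of the other tissues. Static cornea was above static tendon by 1.24 (SE 0.27, adjusted p = 0.017), static tendon differed from static skin by -1.23 (adjusted p = 0.030), and flow tendon from flow skin by -1.18 (adjusted p = 0.047). Flow cornea against flow tendon gave 0.74 and was not called (adjusted p = 0.31). The call of flow tendon against flow skin stood in 5 of 18 refits without 1 library. These left out tendon static 2, tendon static 3, tendon flow 2, cornea flow 2 or skin flow 3. The highest adjusted p was 0.29, without skin flow 1. Of 12 alternatives 8 ended this call, among them culture day as a random block (adjusted p = 0.057) and a block on scan batch (0.053). Others were only the compared groups (0.070), the beta-actin covariate (0.14) and scan batch 2 alone (-0.82, adjusted p = 0.88). The static calls against cornea and skin were lost with only the compared groups (adjusted p = 0.15 and 0.14) and in scan batch 2 alone (0.12 and 0.25). The static calls were lost without tendon static 1 (adjusted p = 0.061 against cornea and 0.082 against skin), tendon static 3 (0.091 and 0.16), cornea static 1 (0.088), cornea static 2 (0.060), skin static 1 (0.092), skin static 2 (0.10) or skin static 3 (0.091).

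Adamts4, aggrecanase-1, was called in static cornea against static skin. Its probe set 1452595_at read 7.37, 7.20 and 7.61 in static cornea and 8.29, 7.83 and 8.18 in static skin, with static tendon between at 7.82, 8.02 and 7.82. The flow libraries read 7.33, 7.82 and 7.77 in cornea, 8.31, 7.85 and 8.08 in skin and 7.93, 7.90 and 7.92 in tendon. The static cornea and skin libraries did not overlap, and under flow the highest cornea library, 7.82, was just below the lowest skin library, 7.85. The static difference was -0.71 (SE 0.16, adjusted p = 0.023), and a second Adamts4 probe set gave -0.26 without a call. The Adamts4 call was lost without cornea static 1 (adjusted p = 0.077), cornea static 2 (0.13), skin static 1 (0.14) or skin static 3 (0.087). It was also lost with the mean of the probe sets (-0.48, adjusted p = 0.062), only the compared groups (0.084) and scan batch 2 alone (-0.61, adjusted p = 0.13).

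The other ADAMTS genes were not called between tissues, although Adamts6 and Adamts7 were under several alternatives, among them culture day as a random block. Adamts6 ran from 6.15 to 7.55, with static cornea above static tendon by 0.77 (adjusted p = 0.059) and, with the block, by 0.75 (adjusted p = 0.048). Other fits that called it used only the compared groups (0.015), replicate number as a block (0.019) or the mean of the probe sets (0.017). It was not called when blocked on scan batch or in scan batch 2 alone. Adamts12, which cleaves cartilage oligomeric matrix protein, ran from 9.05 to 10.47. Adamts7 ran from 6.19 to 7.09 and differed by -0.61 between flow cornea and flow skin, with an adjusted p just above the threshold, at 0.050; with culture day as a random block it was 0.039, and blocking on scan batch gave 0.024. Adamts3, an enzyme that removes the amino-terminal propeptide of procollagen, stayed between 5.01 and 5.41. Adamts8, Adamts10 and Adamts16 had group means within 0.28 of each other, and Adamts15, Adamts18, Adamts19 and Adamts20 within 0.32, all 4 below the 40th percentile of their chip.

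Among the ADAMTS-like genes, Adamtsl3 was called lower in skin than in tendon in both states and than in cornea in static cultures. Its product binds matrix and has no known enzyme activity. Adamtsl3 (1440668_at) read 7.57, 8.15 and 7.56 in static skin, 9.38, 9.54 and 9.06 in static tendon, and 9.0, 9.12 and 9.09 in static cornea. Under flow it read 7.58, 8.31 and 7.75 in skin, 9.64, 9.24 and 9.58 in tendon, and 8.0, 8.44 and 9.0 in cornea. Static skin lay below both other tissues without overlap, while under flow cornea overlapped skin and lay below tendon. Flow cornea exceeded flow skin by 0.60, which was not called. Tendon exceeded skin by 1.57 static (SE 0.23, 2.97-fold, adjusted p = 0.0013) and by 1.60 under flow (SE 0.23, 3.04-fold, adjusted p = 0.0014). Static cornea exceeded static skin by 1.31 (SE 0.23, adjusted p = 0.0043), and flow cornea differed from flow tendon by -1.01 (SE 0.23, adjusted p = 0.036). The flow cornea call was lost without tendon flow 1 (adjusted p = 0.15), tendon flow 3 (0.16), cornea flow 1 (0.17) or cornea flow 2 (0.11), and the other Adamtsl3 calls stood in every such refit. It was also lost with median-centred arrays (0.062). Within scan batch 2 neither flow difference was called, at 1.37 for tendon against skin (adjusted p = 0.069) and -0.69 for cornea against tendon (0.49). The static values there, 1.45 for tendon and 1.22 for cornea against skin, were called (both adjusted p = 0.043). The change of the flow response of Adamtsl3 between tissues was not called (limma F test, adjusted p = 1.0).

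Adamtsl1, also known as punctin, was higher in tendon in static cultures. The libraries of its probe set 1430313_at read 7.21, 6.82 and 6.67 in static tendon, 6.33, 6.14 and 6.19 in static cornea, and 6.38, 6.07 and 6.38 in static skin. Under flow Adamtsl1 read 6.76, 6.51 and 6.82 in tendon, 6.09, 6.11 and 6.24 in cornea and 6.13, 6.44 and 6.07 in skin. Tendon was above the other tissues in each state without overlap. Static cornea against static tendon gave -0.68 (SE 0.14, adjusted p = 0.010) and static tendon against static skin 0.62 (adjusted p = 0.029), and the flow values of -0.55 and 0.48 were not called, although the former was when blocked on scan batch (adjusted p = 0.045). The other Adamtsl1 probe sets gave -0.10 and -0.13 in static cornea against static tendon and 0.28 and 0.41 in static tendon against static skin. With the mean of the probe sets neither static call stood, at -0.30 (adjusted p = 0.19) against cornea and 0.43 (adjusted p = 0.056) against skin. Both were also lost with only the compared groups (adjusted p = 0.10 and 0.22) and in scan batch 2 alone (0.14 and 0.30). The beta-actin covariate ended the call against skin (adjusted p = 0.054). The call against cornea was lost without tendon static 1 (adjusted p = 0.057), and that against skin without tendon static 1 (0.12), tendon static 2 (0.050), skin static 1 (0.061), skin static 2 (0.13) or skin static 3 (0.067). Adamtsl2, Adamtsl4 and Adamtsl5 had no called tissue difference, with group means within 0.25, 0.48 and 0.43.

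Of the inhibitors, Timp3 was lower in tendon. Timp3 (1449335_at) read 11.74, 12.19 and 10.91 in static tendon, 12.63, 12.34 and 12.61 in static cornea, and 12.83, 12.81 and 13.05 in static skin. The flow libraries read 11.22, 11.50 and 11.30 in tendon, 12.12, 12.78 and 12.34 in cornea, and 12.57, 12.60 and 12.54 in skin. Tendon was below both other tissues in each state without overlap. Tendon differed from skin by -1.28 static (SE 0.24, 2.43-fold, adjusted p = 0.0084) and -1.23 under flow (SE 0.24, 2.35-fold, adjusted p = 0.014). Flow cornea was above flow tendon by 1.07 (SE 0.24, adjusted p = 0.025), and the static value of 0.92 had an adjusted p of 0.051, or 0.044 with the mean of the probe sets. The other 3 Timp3 probe sets gave -1.25 to -1.72 in static tendon against static skin.

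These Timp3 calls were lost without skin static 3 (adjusted p = 0.060) in static cultures, and under flow without tendon flow 1 (0.11 against cornea and 0.064 against skin), tendon flow 3 (0.11 and 0.069), cornea flow 2 (0.13), cornea flow 3 (0.070), skin flow 1 (0.059) or skin flow 3 (0.057). Within scan batch 2 the differences were -1.38 and -1.17 against skin and 1.16 for flow cornea against flow tendon, none called (adjusted p from 0.15 to 0.33). Timp1 stayed between 13.23 and 13.91 and Timp4 between 7.23 and 7.89 in all libraries. Timp2, which takes part in the activation of the Mmp2 proenzyme by Mmp14, ran from 11.98 to 13.44, with its lowest value in tendon static 3, and was not called. A second Timp4 probe set gave -0.87 for static cornea against static tendon when every probe set was tested (adjusted p = 0.018), and the probe set standing for Timp4 gave -0.25 without a call.

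**Figure D3:**
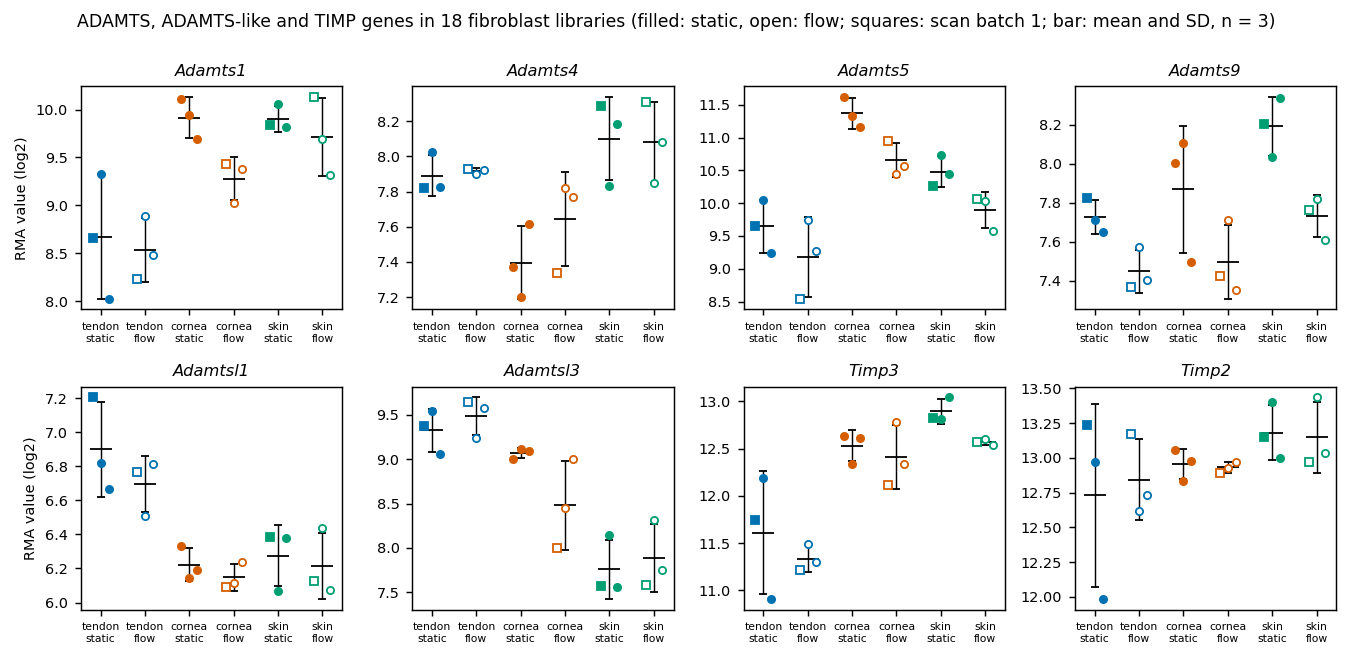
RMA signal (log2) of 8 ADAMTS, ADAMTS-like and TIMP genes in each library, drawn as filled symbols for static and open symbols for flow, squares for scan batch 1, and bars for mean and SD (n = 3). Adamts1 and Timp3 are lowest in tendon, Adamts5 is highest in cornea, and Adamtsl3 is lowest in skin in static cultures.

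The tissue differences seen in static libraries were compared with those in flow libraries, which are separate libraries although many share a culture day. For cornea against tendon, 8 genes were called in either state, all 8 had the same sign in both and 4 (50%) were called in both; of the 510 genes called in either state among all genes, 99.8% had the same sign and 47.3% were called in both. For cornea against skin 7 were called in either state, 7 had the same sign and 2 (28.6%), Mmp10 and Mmp16, were called in both, against 100% and 49.4% of 534 genes. For tendon against skin 5 were called in either state, 5 had the same sign and 3 (60%), Adamts1, Adamtsl3 and Timp3, were called in both, against 100% and 49.3% of 290 genes. Nearly all called genes thus had matching signs, members or not. Of the 30 calls, 7 stood under every alternative and every refit without 1 library: Mmp10 in cornea against skin in both states, Mmp16 in static cornea against each other tissue, Adamts5 in static cornea against static tendon, and Adamtsl3 in static cornea and static tendon against static skin. The fit of only the compared groups, which has fewer samples, ended among others the calls of Mmp10 in cornea against tendon in both states (adjusted p = 0.093 static and 0.061 under flow), of Mmp13 (0.19), Adamts5 (0.076) and Adamtsl3 (0.12) in flow cornea against flow tendon, and of Timp3 (0.12), Mmp9 (0.051) and Adamtsl1 (0.22) in static tendon against static skin. With the beta-actin signal as covariate, Timp3 (adjusted p = 0.16), Mmp13 (0.065) and Adamtsl3 (0.19) were no longer called in flow cornea against flow tendon. Nor were Adamts1 (0.085), Mmp9 (0.076) and Adamtsl1 (0.054) in static tendon against static skin, or Adamts1 in flow tendon against flow skin (0.14). Mmp11 and Mmp2 in flow cornea against flow skin (0.063 each) and Adamts9 for the flow average (0.060) were lost as well. A call in 1 state alone does not show that the states differ, and no gene of the 18193 was called for a difference of the flow response between tissues, 0% of all genes, with 142 genes but none of the 42 at an unadjusted p below 0.05.

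**Figure D4:**
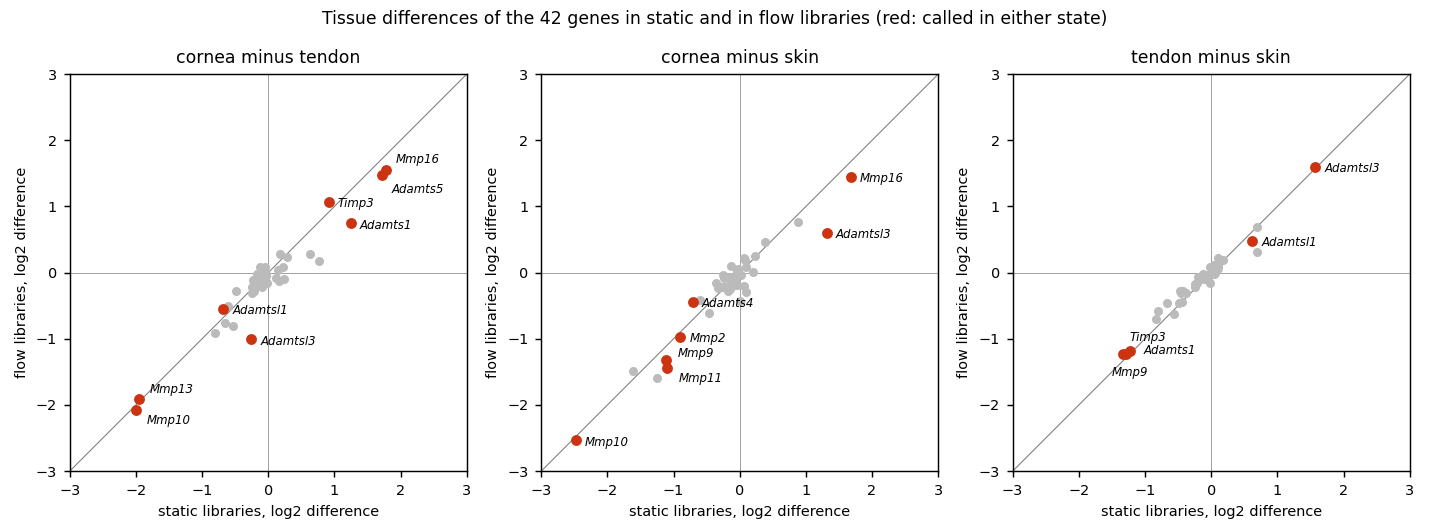
Log2 difference of each of the 42 genes between tissues in static libraries (horizontal axis) and in flow libraries (vertical axis), for cornea minus tendon, cornea minus skin and tendon minus skin, with genes called in either state in red and the diagonal marking equal differences. Mmp10 lies at -2.48 and -2.53 for cornea minus skin, and Mmp16 at 1.78 and 1.55 for cornea minus tendon.

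Few of these genes were called for flow. Within each tissue limma called none of the 42: in tendon 0.0605% of all genes were called, in cornea 0.022% and in skin 0.0275%. At an unadjusted p below 0.05, none of the 42 passed in tendon (4.36% of all genes), 6 in cornea (5.39% of all genes) and 3 in skin (3.01% of all genes). The 6 in cornea were Mmp16 (-0.59), Adamts5 (-0.71), Adamts1 (-0.64), Adamtsl3 (-0.59), Adamts9 (-0.37) and Mmp1a (-0.31), and the 3 in skin were Adamts9 (-0.46), Adamts5 (-0.59) and Adamtsl5 (0.38).

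Averaged over the tissues, Adamts9 was called lower under flow, 1 of 42 genes (2.38%) against 0.896% of all genes. Adamts9 is a versican-cleaving protease. Its probe set 1437785_at read 7.82, 7.71 and 7.65 in static and 7.37, 7.57 and 7.40 in flow tendon, 8.0, 8.11 and 7.50 in static and 7.42, 7.71 and 7.35 in flow cornea, and 8.20, 8.03 and 8.34 in static and 7.76, 7.82 and 7.61 in flow skin. Static and flow libraries did not overlap in tendon and skin and overlapped in cornea. Adamts9 fell by 0.37 on the log2 scale (SE 0.08, 1.29-fold, adjusted p = 0.036). The other Adamts9 probe sets gave -0.08 and -0.05. With the mean of the probe sets Adamts9 was not called (-0.17, adjusted p = 0.12). Nor was it with the beta-actin covariate (-0.39, adjusted p = 0.060) or in scan batch 2 alone (-0.33, adjusted p = 0.48). The call stayed in 5 of 18 refits without 1 library, those without tendon flow 2, cornea static 3, cornea flow 2, skin static 2 or skin flow 2, and the highest adjusted p was 0.090, without skin flow 3.

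When culture day was taken as a block, the average flow response called 6 of the 42 (14.3%), where it called 7% of all genes, and no member was called within a tissue, where the fit called 1.21% of all genes in tendon, 0.33% in cornea and 0.363% in skin. This fit compares libraries of the same day, so cornea static 2 and cornea flow 1, which have no partner, add nothing to the flow estimate. Adamts5 fell by 0.64 (adjusted p = 0.0087), Mmp16 fell by 0.40 (adjusted p = 0.0086) and Adamts9 fell by 0.32 (adjusted p = 0.014) on the log2 scale. Mmp11 rose by 0.43 (adjusted p = 0.0067), Mmp10 by 0.40 (adjusted p = 0.012) and Adamtsl5, a fibrillin-binding protein, by 0.29 (adjusted p = 0.029). When only noted culture days joined libraries, which leaves 6 pairs, 2 of the 42 were called, against 0.962% of all genes: Mmp11 rose by 0.52 (adjusted p = 0.027) and Adamts5 fell by 0.60 (adjusted p = 0.035). Without a block, Adamts5 was called for the average flow response with the mean of its probe sets (-0.63, adjusted p = 0.032). In the fit of noted days the other values were 0.45 for Mmp10 (adjusted p = 0.077), -0.40 for Mmp16 (0.078), -0.29 for Adamts9 (0.12) and 0.29 for Adamtsl5 (0.16).

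The same 6 genes can be followed over the 8 pairs. The culture-day fit that called them used these same pair differences, so their signs add no separate support. Mmp10 was higher under flow in 8 of 8 pairs, by 0.16 to 0.74, and Mmp11 in 8 of 8, by 0.21 to 0.87. Adamtsl5 was higher in 7 of 8 pairs, from -0.04 to 0.49. For these genes the flow library was the higher member of nearly every pair. Mmp16 was lower under flow in every pair, with differences from -0.67 to -0.19, and so was Adamts9, from -0.73 to -0.14. Adamts5 was lower in all but 1 pair, tendon 3, with differences from -1.17 to 0.03. Over all genes, 4.50% were higher under flow in all 8 pairs and 2.39% lower in all 8.

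Mmp3 varied more between culture days than between static and flow. Its static and flow libraries of a pair read 10.70 and 10.75, 9.31 and 9.20, and 8.94 and 9.15 in tendon, then 11.19 and 10.93, 10.25 and 10.10, and 9.93 and 9.82 in skin, and 9.48 and 9.74, and 8.69 and 8.56 in cornea. The members of a pair differed by at most 0.26, while the static libraries ran from 8.94 to 10.70 in tendon and from 9.93 to 11.19 in skin. The SD between days, taken over pair means and pooled within tissues, was 0.76 for Mmp3, and the SD of the pair difference was 0.17. Their ratio was 4.53, against a median ratio of 0.81 over all genes. Under independent noise a pair mean varies less than a pair difference, so such noise alone gives a ratio below 1. The ratio was 2.15 for Mmp10, 2.09 for Mmp11 and 2.13 for Mmp9, and the median over the 42 genes was 0.902. The ratio leaves out a change shared by all pairs, whose mean was 0.45 for Mmp11, 0.40 for Mmp10, 0.05 for Mmp9 and -0.03 for Mmp3, beside SDs between days of 0.50, 0.56, 0.36 and 0.76. Replicate 1 of tendon and of skin, the highest days for Mmp3, lie in scan batch 1, so that the day and the scan batch cannot be told apart there.

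**Figure D5:**
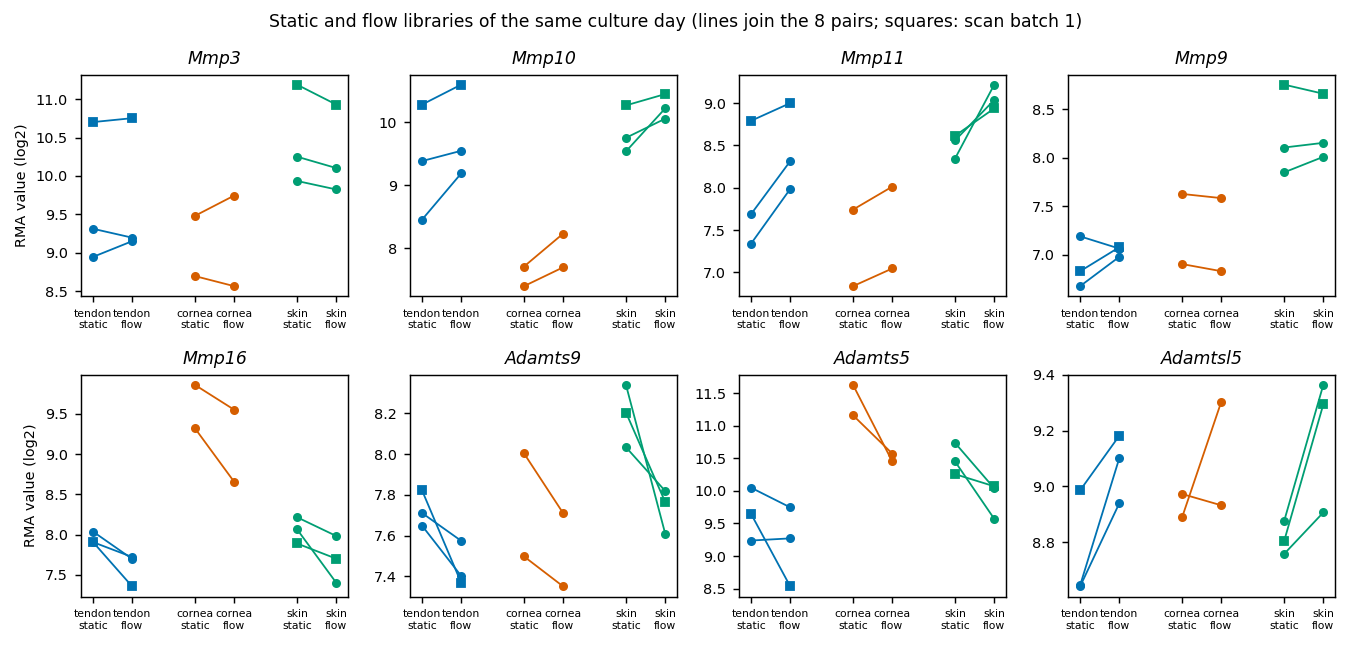
RMA signal (log2) of 8 genes in the static and flow libraries paired by culture day or, for replicate 1 of tendon and skin, by number, joined by lines and grouped by tissue, with squares for pairs scanned in batch 1. Mmp3 lines are nearly level and far apart, Mmp10 and Mmp11 rise in all 8 pairs, and Mmp16 and Adamts9 fall in all 8.

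Genes that act with these proteases were read from 6 lists, whose counts of genes called in any of the 11 comparisons stand beside 5.61% of all genes. Of 12 genes that inhibit, activate or dock metalloproteases, 2 (16.7%) were called, Pcsk5 and Pcsk6, convertases that cleave proproteins. Pcsk5 averaged 8.05 in static and 8.05 in flow skin, against 5.92 and 5.98 in cornea and 6.37 and 6.55 in tendon, and cornea differed from skin by -2.14 static (adjusted p = 0.0013) and -2.06 under flow (adjusted p = 0.0017). Tendon differed from skin by -1.68 and -1.50 for Pcsk5. Pcsk6 was lower in static tendon, with 0.60 for static cornea against static tendon and -0.57 for static tendon against static skin. Furin and the membrane-bound inhibitor Reck were not called.

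Of 8 other collagen-processing proteases, 3 (37.5%) were called. Ctsk, cathepsin K, a collagen-degrading cysteine protease, was lower in cornea, which differed from skin by -1.45 static and -1.28 under flow, and from tendon by -1.14 and -1.03. Fap, fibroblast activation protein, was lower in cornea than in skin, with differences of -1.52 and -1.58, and lower in flow tendon than in flow skin, by a difference of -1.08 (adjusted p = 0.049). Tll1, which removes the carboxy-terminal propeptide of procollagen, was lower in tendon than in skin, with differences of -1.92 static and -1.87 under flow.

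Of 10 cleaved substrates, 2 (20%) were called, Fn1 and Vcan. Vcan, versican, a substrate of Adamts1, Adamts5 and Adamts9, fell by 0.56 on the log2 scale under flow in the average over tissues (adjusted p = 0.020), from a mean of 9.76 to 9.20. Fn1, fibronectin, was lower in static tendon, with 0.70 for static cornea against static tendon and -0.65 for static tendon against static skin. Of 9 ADAM proteases 2 (22.2%) were called, Adam8 (flow cornea against flow tendon, -0.59) and Adam23 (static tendon against static skin, -0.73). None of 9 measured AP-1 and Runx2 regulator genes and none of 6 measured plasminogen system genes was called by limma in any comparison, with between 0 and 2 and between 0 and 1 of them at an unadjusted p below 0.05.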

How the data were processed

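Total RNA of 18 libraries (100 ng each, two-cycle amplification per the scan records) was read on 36 arrays. The deposited values are log2 signals, made with RMA per the submitters' processing notes, and each chip was treated as its own scale; for the RMA version and probe set definitions, the sources used here give nothing. Arrays carry no read depth, and 3 libraries a group limit the precision. Probe sets were named from the platform annotation; 1 probe set stood for each gene (chip A before chip B, then the highest mean). Linear models (limma 3.58.1, R 4.3.3) were fitted per chip over all 6 groups (residual df 12) with eBayes moderation over all probe sets, and Benjamini-Hochberg adjustment ran over the genes of the 2 chips together. The fit was tested on simulated data. For flow against static in tendon it recovered 80% of 100 genes changed by 1 on the log2 scale among 18193 genes. Another 100 genes were changed by 2. The simulated noise was independent between libraries, without culture-day or scan-batch effects, so this share is not the power of the fit in the present data. Alternatives were blocks for replicate number, culture day and scan batch, other probe set rules, a filter at the 40th percentile, median centring, an intensity trend, only the compared groups, beta-actin 3'-to-5' difference as covariate, and each library left out. The fit of scan batch 2 alone, a culture-day block limited to noted days, within-batch differences and same-day pair differences were chosen after seeing the data.

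Members and gene lists were chosen with earlier results of these data known. Members called in any comparison were named with every library, other members by ranges. Same-numbered libraries of different groups deviated together (r over 0.1) in 23 of 45 pairs, and in 7 of 9 pairs of the same tissue, so numbers do not pair all samples; culture days, noted in the scan records for 13 libraries and taken from the shared number for replicate 1 of tendon and skin, gave 8 pairs. Genes of these families without a single-symbol probe set were not analysed here.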

Additional observations from a re-analysis of the deposited data

How the results depend on the processing

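The 30 named differences kept their sign under all alternatives run. Of 360 combinations of difference and alternative, 302 stayed called and 58 did not. A further 20 differences of members were called under at least 1 alternative, among them Mmp14 in static cornea against static skin with the replicate block (-0.61, adjusted p = 0.048) and Adamts4 in static cornea against static tendon with the beta-actin covariate (-0.59, adjusted p = 0.042). Of 540 refits without 1 library, 442 stayed called and 98 did not. The count of members called moved by over 1.5 times in the following cases, whose cause was not tested; the number in brackets is the count over all 18193 genes in the same fit. With the culture-day block it was 7 (526) for static cornea against static skin and 6 (1273) for the flow average, and with noted days only, chosen after seeing the data, 8 (548) and 2 (175). With the beta-actin covariate it was 3 (382) for flow cornea against flow skin, 3 (220) for flow cornea against flow tendon, 2 (177) for static tendon against static skin and 0 (178) for the flow average. With only the compared groups, and so fewer samples, it was 2 (247) for flow cornea against flow tendon and 1 (124) for static tendon against static skin. Median-centred arrays gave 3 (319) for flow cornea against flow skin. Scan batch 2 alone, with 13 libraries, gave 2 (135) for flow cornea against flow skin, 0 (111) for flow cornea against flow tendon, 0 (72) for flow tendon against flow skin, 1 (86) for static tendon against static skin and 0 (32) for the flow average, against main counts over all genes of 348, 307, 193, 240 and 163.

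Leaving out 1 library gave 2 to 9 members for static cornea against static tendon (lowest without tendon static 1, and 3 without cornea static 2), 3 to 6 for static cornea against static skin, 1 to 6 for static tendon against static skin (lowest without skin static 3, 2 without skin static 1, and 3 without tendon static 1 or skin static 2), 2 to 8 for flow cornea against flow tendon (lowest without tendon flow 1, and 3 without cornea flow 1), 2 to 7 for flow cornea against flow skin (lowest without cornea flow 1, cornea flow 3 or skin flow 1, and 3 without tendon flow 3, cornea static 2, any static skin library, skin flow 2 or skin flow 3), 1 to 4 for flow tendon against flow skin (lowest without tendon flow 1, tendon flow 3 or skin flow 1), 0 to 2 for the flow average, and 0 to 0 for flow in each tissue and for the difference between tissues. Over all genes these refits called 311 to 647, 231 to 497, 126 to 253, 185 to 342, 210 to 386, 105 to 207 and 98 to 178, in the order of the first 7. With the replicate number as a block, the counts were 8, 6 and 5 in the static and 6, 7 and 3 in the flow tissue comparisons (cornea against tendon, cornea against skin, tendon against skin), 1 for the flow average and 0 elsewhere (547, 580 and 302, then 367, 450 and 214, and 200 over all genes); all were within 1.5 times of the main counts. The number is a pairing only where it marks a culture day. The comparison of flow responses with only the compared groups was not run, as it uses all groups.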
